A study of Mus musculus with 45 samples.

Results

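The transcripts described here are those of 9 genes used to mark neural progenitor cells, Nes, Sox1, Pax6, Zfp521, Sox11, Sox21, Pax3, Fabp7 and Msi1, taken by gene symbol from the 35372 rows of the count files. The list was drawn up by name and by no threshold on the values, but with earlier results of these data known. All 9 symbols were found once in each of the 45 libraries. The cells were male, wild-type E14tg2a embryonic stem cells (ESCs) of 129/Ola background, a single established line, kept either in 2iL (N2B27 medium with the Gsk3 inhibitor CHIR99021, the Mek inhibitor PD0325901 and LIF) or in SL (serum and LIF). From each medium the cells were differentiated by suspension culture in serum without LIF (labelled EB, for embryoid bodies), by adherent culture in N2B27 with Fgf2 and Activin A (labelled EpiSC), or by adherent culture in N2B27 alone (labelled Neural). RNA was sequenced after removal of ribosomal RNA at days 0, 1, 1.5, 2, 2.5, 3, 5 and 7. There was 1 library for each medium, course and day. A single SL library stood for day 0 of all 3 courses, and day 5 of the EpiSC course from 2iL was not analysed here.

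Neural progenitors of the early embryo arise from the epiblast when signals for mesoderm and endoderm are absent, and form the neuroepithelium of the neural plate and tube. They are recognised by transcription factors of the SoxB1 and Pax families together with the intermediate filament protein nestin. As they mature they take on features of radial glia and give rise to neurons. In culture, ESCs moved to serum-free medium without LIF follow a similar path, whereas suspension culture in serum gives derivatives of several germ layers.

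The libraries held between 13093226 and 39804240 counted reads, with a median of 18222720. The 8 EB libraries from 2iL were among the deepest, at 31055159 to 39804240 reads. Levels are given as CPM, the gene's count relative to the library total at the usual scale. In a library of median depth 3 counts, the limit that a count of 0 allows, equalled 0.165 CPM (0.0754 to 0.229 over the libraries), and these limits cover counting error only. All comparisons were tested in edgeR across all genes that passed its filter on low counts, with an adjusted p of 0.05 as the threshold. With 1 library per condition, no condition had a replicate of its own. Where days were compared, the libraries from 2iL and SL served as the replicates of a course and day. Where courses were compared, the spread came from media and days, and where media were compared after day 0, from courses and days. In the interaction terms it came from media, days or courses. The p-values measure these spreads, and not that between repeated cultures. The cells labelled as undifferentiated carried pluripotency markers at high levels. The summed CPM of 8 pluripotency genes, Pou5f1, Nanog and others, was 4647 to 4860 in the 3 day 0 libraries in 2iL and 3211 in SL, and 75.1 to 345 in the Neural libraries of days 5 and 7. In these bulk samples, fewer cells of a type and less RNA per cell cannot be told apart.

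On GRCm38, Nes lies on chromosome 3 (87971078 to 87980451, plus strand), Sox1 on 8 (12395295 to 12400126, plus), Pax6 on 2 (105668900 to 105697364, plus) and Zfp521 on 18 (13687013 to 13972787, minus). Sox11 lies on 12 (27334264 to 27342574, minus), Sox21 on 14 (118233232 to 118237030, minus), Pax3 on 1 (78101267 to 78197134, minus), Fabp7 on 10 (57784881 to 57788450, plus) and Msi1 on 5 (115429599 to 115455698, plus). All 9 are annotated as protein-coding, and the counts are of reads on their exons. Of the 4832 exon bases of Sox1, 86 (1.78%) are shared with Gm25239 on the same strand, so the assignment of reads there is uncertain. Sox21 shares 713 of its 3799 exon bases (18.8%) with Gm4675 on the opposite strand, which strand-specific counting keeps apart. No shared exon bases were found for the other 7 genes.

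RefSeq promoter windows of 300 bases around the start site (build GRCm38.p6) matched 6 of the 9 genes, with 7 windows because Pax6 had a pair of them. The number of CG dinucleotides in these windows was 37 for Sox1, 22 for Sox21, 21 for Sox11, 18 for Nes, 18 and 16 for Pax6 and 6 for Fabp7, against a median of 7 over all 32851 windows. Sox1 stood at the 95th percentile of all windows and Fabp7 at the 47.9th. The letters ACAAAG, on either strand, were found in 1 of the 7 windows, a Pax6 window, and in 18.7% of all windows, and ATTAGC in both Pax6 windows and in 6.73% of all windows. The bases before the start are printed for Nes and Sox21, whose transcripts were already present in 2iL ESCs, and for Fabp7, which was at or under the counting limit there. Each is written 5′ to 3′ on the strand of the gene with CG in capitals, from chr3:87970843-87971077, from the minus strand of chr14:118237031-118237280 and from chr10:57784673-57784880.
Nes: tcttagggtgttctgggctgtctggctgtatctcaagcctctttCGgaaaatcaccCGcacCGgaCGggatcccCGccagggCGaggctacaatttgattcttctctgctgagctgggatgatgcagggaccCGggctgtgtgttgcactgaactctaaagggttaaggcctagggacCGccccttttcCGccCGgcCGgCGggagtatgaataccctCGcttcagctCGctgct
Sox21: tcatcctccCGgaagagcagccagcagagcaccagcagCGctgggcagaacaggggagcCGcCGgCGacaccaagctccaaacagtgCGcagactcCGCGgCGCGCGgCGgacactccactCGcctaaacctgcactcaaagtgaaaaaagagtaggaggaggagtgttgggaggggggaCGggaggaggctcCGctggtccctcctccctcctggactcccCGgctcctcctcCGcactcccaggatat
Fabp7: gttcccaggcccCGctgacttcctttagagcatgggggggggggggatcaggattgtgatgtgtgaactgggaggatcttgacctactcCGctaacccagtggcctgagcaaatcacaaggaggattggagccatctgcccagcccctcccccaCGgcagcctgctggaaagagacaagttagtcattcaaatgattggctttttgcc
In these stretches CG occurred 14 times in 235 bases for Nes, 17 times in 250 bases for Sox21 and 3 times in 208 bases for Fabp7.

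The starting levels of the 9 transcripts differed between the media. Nes, which encodes the intermediate filament nestin, was at 30.4, 28.1 and 23.9 CPM in the day 0 libraries of the EB, EpiSC and Neural courses from 2iL and at 4.44 CPM in SL. All 3 libraries in 2iL lay above the SL library, and the log2 difference was 2.69 ± 0.24 (SE, adjusted p = 0.00012). Sox21, a SoxB2 factor that acts against the SoxB1 factors, was at 14.8, 26.9 and 25.8 CPM in 2iL and 2.63 CPM in SL (log2 3.15 ± 0.44, adjusted p = 0.001). Msi1, an RNA-binding protein of neural stem cells, was at 27.2, 22.1 and 27.6 CPM in 2iL and 11.3 CPM in SL (log2 1.25 ± 0.24, adjusted p = 0.0047). Sox11, a SoxC factor of neural precursors and young neurons, went the other way, with 0.833, 0.200 and 0.187 CPM in 2iL and 3.18 CPM in SL (log2 -2.75 ± 0.68, adjusted p = 0.015). So 3 members were higher in 2iL and 1 in SL, or 4 of the 7 that passed the filter, against 30.8% of the 14948 genes tested. Sox1 (log2 -0.11 ± 0.34, adjusted p = 0.84), Pax6 and Zfp521 did not pass the test. Sox1, an early factor of the neural plate, was at 3.98 to 5.13 CPM in 2iL and 4.99 in SL, and Pax6, a factor of forebrain, eye and spinal cord progenitors, at 0.747 to 2.06 and 1.70. Pax3, a factor of the dorsal neural tube and of muscle precursors, and Fabp7, a fatty acid binding protein of radial glia, failed the filter on low counts. Pax3 had 3, 2 and 0 counts in 2iL and 3 in SL, and Fabp7 had 0, 1 and 1 counts and 1 in SL. The spread of this comparison came from the 3 libraries in 2iL alone, since SL had 1 library.

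One day after the change of medium, Nes differed less between the origins. Its level at day 1 was 18.2, 15.2 and 13.6 CPM in the EB, EpiSC and Neural libraries from 2iL and 6.39, 6.66 and 6.97 CPM in those from SL. Every library from 2iL was lower than its day 0 library, and every one from SL was higher than the SL day 0 library. The medium by day term for Nes was -1.49 ± 0.25 on the log2 scale (adjusted p = 0.0066), the only member called of 7 tested, against 10.7% of the 15515 genes tested. The comparison was added after the values were seen. Msi1 was at 8.42, 10.5 and 11.3 CPM at day 1 from 2iL and 2.57, 4.38 and 4.94 CPM from SL, below day 0 in all 6 libraries. Its medium by day term was 0.06 ± 0.39 (adjusted p = 0.94).

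**Figure D1:**
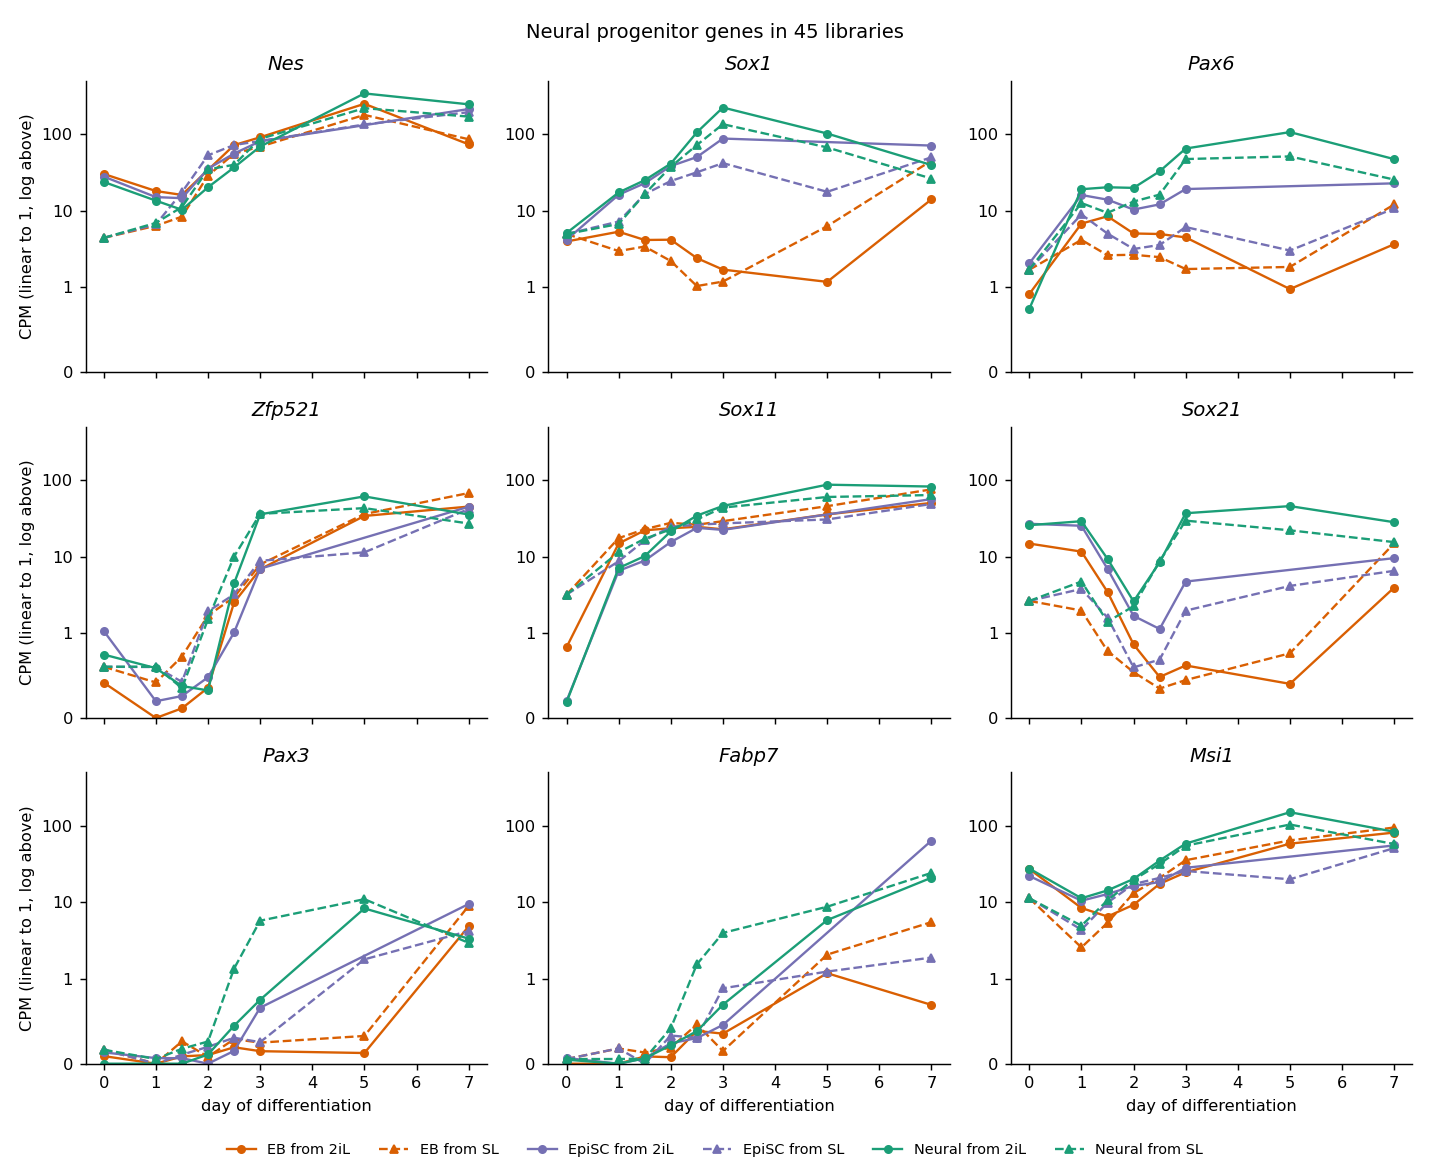
CPM of the 9 genes against day of differentiation, 1 panel per gene, with 1 point per library. Colours give the course, solid lines with circles 2iL and broken lines with triangles SL, the SL day 0 library is drawn in each course, and the axis is linear to 1 CPM and logarithmic above. Sox1 peaked at 225 and 136 CPM at day 3 of the Neural course, and Fabp7 was highest there at day 7.

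In the Neural course the members passed the test against day 0 on different days. At day 1, 4 of the 9 members passed the test against day 0, with 15.6% of the 15816 genes tested passing. Pax6 was at 19.2 CPM from 2iL and 12.7 from SL at day 1 (log2 3.67 ± 0.38, adjusted p = 0.00088), Sox11 at 7.09 and 11.4 CPM (2.56 ± 0.65, adjusted p = 0.027) and Sox1 at 17.4 and 6.75 CPM (1.17 ± 0.24, adjusted p = 0.012). Msi1 fell by 1.25 on the log2 scale (SE 0.30, adjusted p = 0.023). Without single libraries of day 0 or day 1 the calls of Sox1, Sox11 and Msi1 were lost, at adjusted p values of 0.05 to 0.16, while that of Pax6 was kept in every such fit. At days 1.5 and 2, Sox1, Pax6 and Sox11 passed, all higher, against 26.2% and 34% of genes, and Sox11 at day 1.5 was lost without the SL library of that day (adjusted p = 0.052). At day 2.5 this was 7 members (35.5% of genes), with Zfp521, Pax3, Fabp7 and Msi1 added. Of these, Msi1 was lost without either day 2.5 library or the SL day 0 library (adjusted p 0.053 to 0.21) and Fabp7 without the SL day 2.5 library (adjusted p = 0.064). At day 3 it was 8 (40.4%), with Nes added. At days 5 and 7, 8 of 9 were higher than at day 0, against 50.7% and 56.1% of genes called in either direction and, at day 7, 27.7% called higher and 28.4% lower. The member that was not called was Sox21. All comparisons of this course share the day 0 libraries.

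Sox1 was the member with the clearest rise and fall. From 2iL its levels at days 0, 1, 1.5, 2, 2.5, 3, 5 and 7 were 5.13, 17.4, 25.2, 41.6, 106, 225, 103 and 39.8 CPM. From SL they were 4.99, 6.75, 16.7, 37.8, 72.8, 136, 67.7 and 26.5 CPM. Both courses were highest at day 3, and at day 7 had 17.7% and 19.5% of that level left. Against day 0 the log2 change was 5.08 ± 0.26 at day 3 (adjusted p = 4.3e-06) and 2.65 ± 0.24 at day 7 (adjusted p = 2.3e-05), and from day 3 to day 7 Sox1 fell by 2.43 (SE 0.22, adjusted p = 0.00027). In that last comparison, added after the values were seen, 2 of 9 members passed, Sox1 lower and Fabp7 higher, against 27.9% of genes.

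Pax6 rose early, paused and rose again. Its levels from 2iL were 0.747, 19.2, 20.4, 20.02, 32.9, 65.5, 107 and 47.6 CPM over the same days, and from SL 1.70, 12.7, 9.44, 13.3, 16.4, 47.7, 51.6 and 25.7 CPM. The highest level was at day 5 from both media, 144 and 30.3 times the lowest, which was day 0. The log2 change was 5.89 ± 0.40 at day 5 (adjusted p = 6.4e-06).

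Zfp521, a zinc finger factor known to drive the entry of ESCs into the neural lineage, stayed low for 2 days and then rose within 1 day. On days 2, 2.5 and 3 it was at 0.325, 4.47 and 35.7 CPM from 2iL and at 1.51, 9.997 and 36.2 CPM from SL. The highest values, 61.3 and 43.1 CPM, were at day 5. The log2 change was 3.43 ± 0.54 at day 2.5 (adjusted p = 0.0012) and 5.67 ± 0.55 at day 3 (adjusted p = 5.8e-05).

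Sox11 was higher on each later day up to day 5. Its levels on days 0, 1, 2, 3, 5 and 7 were 0.187, 7.09, 21.4, 46.0, 87.2 and 82.5 CPM from 2iL and 3.18, 11.4, 22.7, 43.7, 60.3 and 63.9 CPM from SL. Day 0 in 2iL rested on 4 counts, and the log2 change at day 7, 5.54 ± 0.68 (adjusted p = 0.0001), was 4.56 to 8.47 when single libraries were left out.

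Sox21 was low in the middle of the course. From 2iL its levels over the 8 days were 25.8, 29.0, 9.35, 2.60, 8.43, 36.9, 45.8 and 28.2 CPM. From SL it started at 2.63 CPM, was at 4.72 and 1.41 at days 1 and 1.5, and reached 29.5 CPM at day 3 before 22.1 and 15.5 CPM at days 5 and 7. From day 2 to day 3 the origins lay near each other, at 2.60 and 2.25 CPM on day 2 and 8.43 and 8.70 CPM on day 2.5. No day of the Neural course passed the test against day 0 for Sox21 (log2 1.64 ± 0.74 at day 3, adjusted p = 0.1). Without the 2iL day 0 library, day 3, day 5 and day 7 passed as higher (log2 3.17, 3.09 and 2.49, adjusted p = 0.015, 0.013 and 0.031). Without the SL day 0 library, day 2 passed as lower (log2 -2.85 ± 0.72, adjusted p = 0.012).

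Nes, Msi1 and Pax3 were highest at day 5. On days 1.5, 3, 5 and 7 Nes was at 10.3, 69.5, 344 and 248 CPM from 2iL and at 11.3, 87.7, 221 and 171 CPM from SL. Its log2 change was 1.58 ± 0.58 at day 2.5 (adjusted p = 0.056), 2.51 ± 0.59 at day 3 (adjusted p = 0.0072) and 4.31 ± 0.62 at day 5 (adjusted p = 0.00034). Msi1 dipped to 11.3 and 4.94 CPM at day 1 and reached 151 and 104 CPM at day 5 (log2 2.72 ± 0.30 against day 0, adjusted p = 7.6e-05). Pax3 reached 8.31 and 10.98 CPM at day 5 and was back at 3.35 and 2.95 CPM at day 7. At day 3 Pax3 was at 0.752 CPM from 2iL and 5.74 from SL, and its call at day 2.5 was lost without either library of day 0 or of day 2.5 (adjusted p 0.053 to 0.14).

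Fabp7 came last. It was at 0.695, 5.85 and 20.96 CPM at days 3, 5 and 7 from 2iL and at 3.98, 8.75 and 24.2 CPM from SL. From day 3 to day 7 it rose by 3.61 ± 0.50 on the log2 scale (adjusted p = 0.0012). All 4 day 0 libraries together held 3 counts of Fabp7, and the pooled level at Neural day 7 was 659 times that of day 0, with an exact 95% counting interval of 225 to 3204. For Pax3, with 8 counts at day 0, the pooled level at Neural day 5 was 107 times higher (53.6 to 249). The fitted log2 changes of both genes against day 0 depend on the prior count of the fit.

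**Figure D2:**
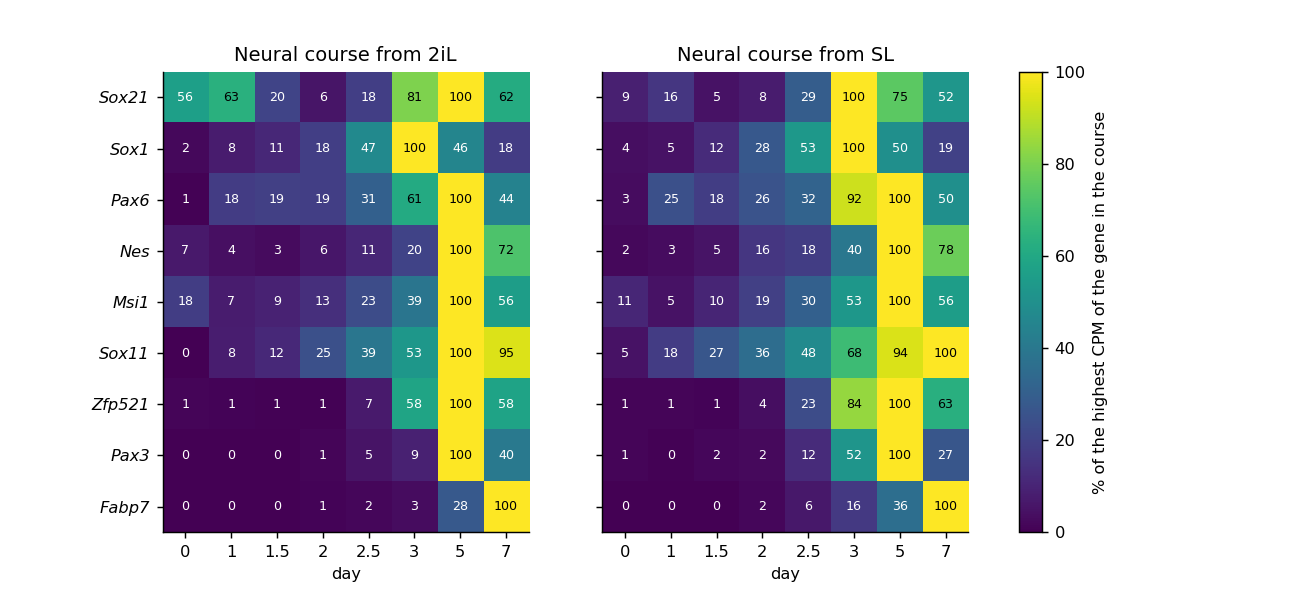
Level of each gene at each day of the Neural course as a percentage of its highest CPM in that course, from 2iL at the left and from SL at the right. Rows are genes, columns days, and each cell is 1 library. Sox1 was at 100% at day 3, most other genes at day 5 and Fabp7 at day 7 from both media.

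The summed CPM of 12 neuronal genes was 109 to 161 in 2iL and 183 in SL at day 0, and in the Neural course 178 and 125 at day 5 and 635 and 386 at day 7, from 2iL and SL. The glial genes summed to 30.5 to 43.2 CPM in 2iL and 32.7 in SL at day 0 and to 11.6 to 20.8 CPM in the 4 Neural libraries of days 5 and 7. Among them Gfap was at 0 to 0.115 CPM in these 4 libraries, Aldh1l1 at 5.96 to 13.7, Olig2 at 0.516 to 2.34 and Aqp4 at 0.981 to 2.06 CPM, and Aqp4 had no count at day 0. The summed CPM of 8 endoderm genes was 1.8 to 3.54 in 2iL at day 0, 326 in SL at day 0 and 921 to 2170 in the Neural libraries of days 5 and 7, of which Cubn, an endocytic receptor of visceral endoderm, made up 816 to 1783 CPM. None of the 8 was at 0 in these libraries, with Sox17 at 22.4 to 59.1 and Foxa2 at 15.1 to 56.6 CPM. The course labelled Neural thus held endoderm markers, most of their summed level being Cubn, and the part of such cells in the levels of the 9 members was not tested.

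In EBs the members came apart. At day 5 Nes was at 252 and 180 CPM in EB libraries, beside 344 and 221 CPM in Neural libraries, while Sox1 was at 1.18 and 6.31 CPM beside 102.9 and 67.7 CPM. On days 0, 3, 5 and 7 Nes was at 30.4, 91.9, 252 and 74.3 CPM from 2iL and at 4.44, 69.3, 180 and 86.6 CPM from SL. Over the same days Sox1 was at 3.98, 1.71, 1.18 and 14.16 CPM from 2iL and 4.99, 1.19, 6.31 and 45.5 CPM from SL. Pax6 from 2iL was highest at day 1.5, at 8.51 CPM, and was at 0.980 CPM at day 5. From SL it was at 2.63 CPM at day 1.5 and 1.85 at day 5, and was highest at day 7, at 12.2 CPM. In the day 5 libraries the summed CPM was 737 and 200 for 10 mesoderm genes and 2004 and 2516 for 7 primed epiblast genes, and the part of those cells in the Nes level was not tested.

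At EB day 3, 4 of 9 members passed against day 0, with 28.3% of the 16674 genes tested passing. Nes (log2 2.39 ± 0.56, adjusted p = 0.011), Zfp521 (3.87 ± 0.70, adjusted p = 0.003) and Sox11 (3.82 ± 0.36, adjusted p = 7.9e-05) were higher, and Sox21 fell by 3.86 (SE 1.07, adjusted p = 0.023). The Sox21 call was lost without the 2iL day 0 library or either day 3 library (adjusted p 0.095 to 0.17), and that of Nes without the SL day 3 library (adjusted p = 0.051). Sox21 was at 14.8 and 2.63 CPM at day 0 and at 0.618 and 0.447 CPM at day 3.

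By EB day 7, 8 of 9 members were higher than at day 0, against 43.5% of genes called in either direction. Zfp521 reached 45.1 and 67.8 CPM (log2 6.73 ± 0.76, adjusted p = 0.00011), Sox11 50.4 and 75.8, Msi1 81.7 and 95.04, and Pax3 4.84 and 8.97 CPM. Pax3 was at 0.126 and 0.327 CPM 2 days earlier and was the only member called between days 5 and 7 (log2 5.02 ± 0.49, adjusted p = 0.0038), against 1.97% of genes. Without the 2iL day 5 library the adjusted p of this comparison, which was added after the values were seen, was 0.075. Sox1 rose by 2.68 ± 0.78 to day 7 (adjusted p = 0.019) and Pax6 by 2.63 ± 0.80 (adjusted p = 0.022). The SL day 7 library had 45.5 CPM of Sox1 and 12.2 CPM of Pax6, and without it the log2 changes were 1.51 (adjusted p = 0.17) and 1.09 (adjusted p = 0.27). Without the 2iL day 0 library they were also not called (adjusted p = 0.075 and 0.12), nor was Sox1 without the SL day 0 library (adjusted p = 0.057). Fabp7 was at 0.692 CPM from 2iL and 5.50 from SL (log2 6.56 ± 1.28, adjusted p = 0.0025), a pooled level 69.9 times that of day 0 (23.4 to 343).

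In the EpiSC course, 5 of 9 members were higher at day 3 than at day 0 (31.9% of the 16233 genes tested were called) and 8 at day 7 (44.6%). Sox1 was at 88.4 and 42.2 CPM at day 3 (log2 3.72 ± 0.29, adjusted p = 6.4e-05), and was still at 71.6 and 50.3 CPM at day 7. Pax6 was at 19.3 and 6.15 CPM at day 3 and at 22.9 and 10.8 CPM at day 7 (8.02-fold over day 0, adjusted p = 0.00025). Nes was at 81.5 and 82.03 CPM at day 3 and 215 and 196 CPM at day 7 (log2 3.70 ± 0.68, adjusted p = 0.0023), its highest levels in this course. Its day 3 call (log2 2.43 ± 0.65, adjusted p = 0.02) was lost without either day 3 library, at an adjusted p of 0.07 each time. Day 5, with a library from SL only, had less Sox1 than day 3 or day 7, at 17.8 CPM. Fabp7 separated the day 7 libraries of this course, with 64.0 CPM from 2iL, the highest of all 45 libraries, and 1.89 CPM from SL. In the same pair of libraries the neuronal genes summed to 341 and 208 CPM, and Pax3 was at 9.49 and 4.20 CPM. Fabp7 was called at day 7 (log2 8.39 ± 1.73, adjusted p = 0.0041), and the pooled level was 969 times that of day 0 (331 to 4703), with 1214 counts in the 2iL library. The call held without any single library (highest adjusted p 0.046), but without the 2iL day 7 library the log2 change was 4.54 (adjusted p = 0.014), and the SL library alone was 55.7 times day 0 (17.6 to 283).

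At days 2.5 and 3, with 4 libraries a course, 8 of 9 members were higher in Neural than in EB libraries and none was lower. Of the 14862 genes tested, 43.9% were called in either direction, 3324 of them higher and 3201 lower. Sox1 was at 72.8 to 225 CPM in the 4 Neural libraries and 1.04 to 2.42 in the 4 EB libraries (log2 6.47 ± 0.21, adjusted p = 3.7e-08), and Sox21 at 8.43 to 36.9 and 0.347 to 0.618 CPM (5.41 ± 0.31, adjusted p = 6.7e-07). Pax6 was at 16.4 to 65.5 and 1.74 to 4.99 CPM (3.64 ± 0.29, adjusted p = 7.9e-06). Sox1, Sox21, Pax6, Sox11 and Pax3 did not overlap between the courses, and the other 4 members did. The share of all genes without overlap was not counted, so this number has no background beside it. The log2 differences of Pax3, Zfp521, Fabp7, Msi1 and Sox11 were 2.92, 1.98, 1.95, 0.99 and 0.70. Nes was the exception, at 37.1 to 87.7 CPM in Neural and 56.0 to 91.9 CPM in EB libraries (log2 -0.26 ± 0.15, adjusted p = 0.19). Against the EpiSC libraries of the same days, 7 members were higher in Neural and none was lower. Here 17.1% of genes were called in either direction, 1305 higher and 1231 lower. The log2 differences were 3.38 ± 0.26 for Sox21, 2.16 ± 0.27 for Pax6, 2.14 ± 0.27 for Zfp521, and 1.42 ± 0.16 for Sox1, and 0.71 to 2.21 for Sox11, Msi1 and Pax3. Nes (-0.30 ± 0.15, adjusted p = 0.19) and Fabp7 (1.58 ± 0.53, adjusted p = 0.062) did not pass. The call of Pax3 was lost without any of 4 single libraries (adjusted p 0.056 to 0.1). Both comparisons share the Neural libraries.

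**Figure D3:**
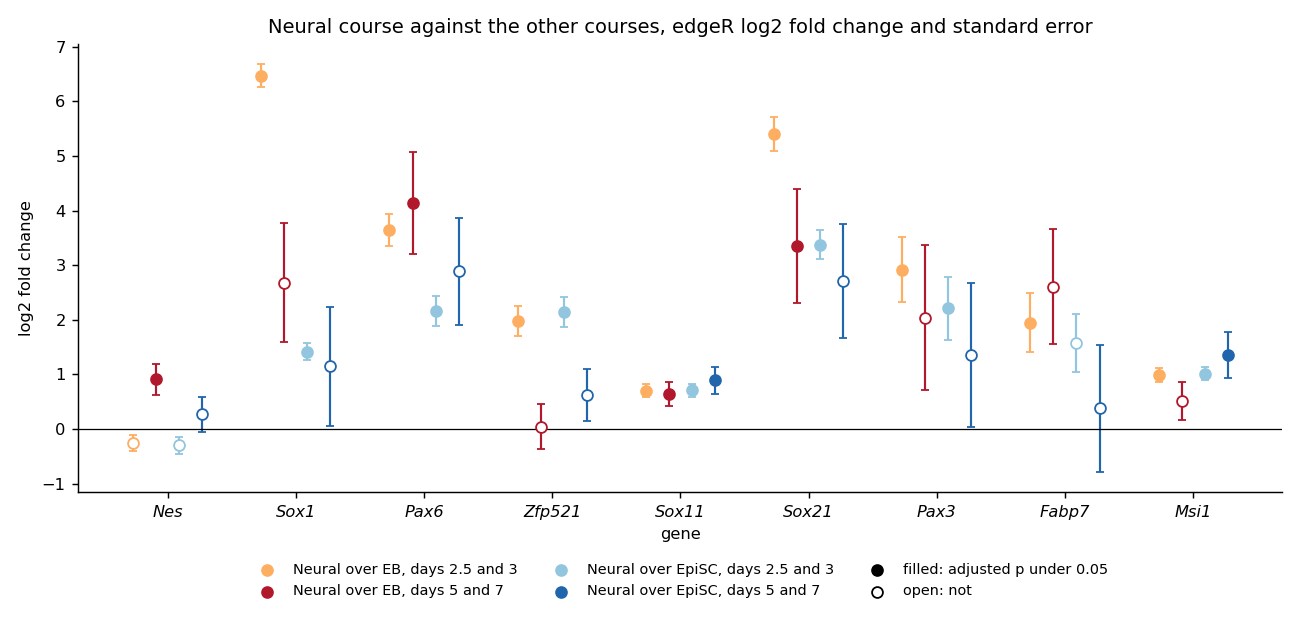
Log2 fold change of Neural over EB and over EpiSC libraries from edgeR for each gene, at days 2.5 and 3 and at days 5 and 7, with standard errors as bars. Filled points had an adjusted p under 0.05. Sox1 differed by 6.47 from EB at days 2.5 and 3 with a standard error of 0.21, and by 2.68 with a standard error of 1.09 at days 5 and 7.

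At days 5 and 7, 4 members were higher in Neural than in EB libraries and none lower, against 33.5% of the 15466 genes tested called in either direction, 17.9% higher and 15.6% lower. Pax6 was at 107, 47.6, 51.6 and 25.7 CPM in the Neural libraries and at 0.980, 3.67, 1.85 and 12.2 CPM in the EB libraries (days 5 and 7 from 2iL, then from SL). The groups did not overlap, and the log2 difference was 4.14 ± 0.94 (adjusted p = 0.011), past the threshold whichever library was left out. Sox21 was at 15.5 to 45.8 CPM in Neural and 0.402 to 14.97 CPM in EB libraries (3.35 ± 1.04, adjusted p = 0.036), also without overlap. How common such a lack of overlap was over all genes was not counted. Nes differed by 0.91 ± 0.29 (adjusted p = 0.042) and Sox11 by 0.64 ± 0.22 (adjusted p = 0.047), with overlapping libraries in both. When single libraries were left out, the call of Nes was lost in 8 of 11 fits (adjusted p 0.051 to 0.1), that of Sox11 in 9 (0.055 to 0.17) and that of Sox21 in 6 (0.05 to 0.11). Sox1 did not pass (2.68 ± 1.09, adjusted p = 0.087), with 102.9, 39.8, 67.7 and 26.5 CPM in Neural and 1.18, 14.16, 6.31 and 45.5 CPM in EB libraries, so that the EB library of day 7 from SL was above both Neural libraries of day 7. Without that EB library the Sox1 difference was 3.29 (adjusted p = 0.023), and without the SL Neural library of day 7 it was 3.77 (adjusted p = 0.031).

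Whether the gap between Neural and EB changed from day 5 to day 7 was tested as a course by day term, added after the values were seen. Pax3 was the only member called of 9 (log2 -6.65 ± 0.80, adjusted p = 0.016), against 2.23% of the 16028 genes tested. Pax3 was at 8.31 and 10.98 CPM in Neural against 0.126 and 0.327 CPM in EB libraries at day 5, and at 3.35 and 2.95 against 4.84 and 8.97 CPM at day 7. The call was lost without any of 4 single libraries (adjusted p 0.082 to 0.11). The same term was -4.75 ± 1.05 for Sox21 (adjusted p = 0.069), -4.46 ± 1.04 for Sox1 (adjusted p = 0.078) and -3.70 ± 0.99 for Pax6 (adjusted p = 0.11). Without the 2iL EB day 7 library, Sox1, Pax6, Sox21, Zfp521 and Msi1 passed (adjusted p 0.0083 to 0.044).

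Against the 3 EpiSC libraries of days 5 and 7, 2 members were higher in Neural, Sox11 (0.89 ± 0.24, adjusted p = 0.032) and Msi1 (1.36 ± 0.42, adjusted p = 0.047). In this comparison 21.2% of genes were called in either direction. The call of Msi1 was lost in 10 of 11 fits without a single library (adjusted p 0.059 to 0.15) and that of Sox11 in 5 (0.066 to 0.11). Fabp7 differed by 0.38 ± 1.16, and by 3.64 (adjusted p = 0.022) without the 2iL EpiSC day 7 library. Between EB and EpiSC no member passed in edgeR, where 5.95% of genes were called. Without an adjustment 3786 genes had a p under 0.05 in that comparison, and DESeq2 called 2086 genes.

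**Figure D4:**
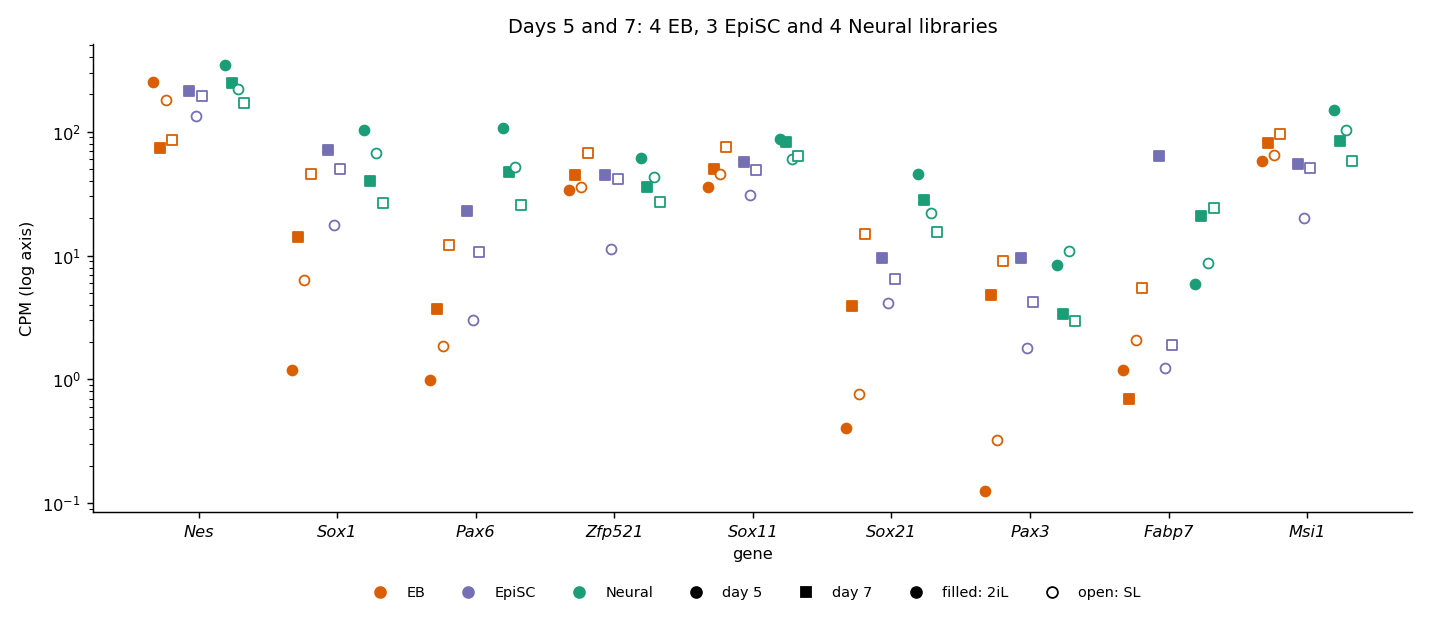
CPM of the 9 genes in the 11 libraries of days 5 and 7 on a logarithmic axis, 1 point per library, with courses in colour, day 5 as circles, day 7 as squares, 2iL filled and SL open. Pax6 did not overlap between Neural (25.7 to 107 CPM) and EB (0.980 to 12.2 CPM), and Fabp7 in EpiSC ranged from 1.24 to 64.0 CPM.

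Over the 15 pairs of libraries from 2iL and SL matched for course and day on days 1 to 3, 7 of 9 members differed, against 50.4% of the 15786 genes tested. The pairs are successive days of the courses of a single line. The p-values therefore measure how alike the difference was over courses and days, and not the spread between independent cultures in each medium. Sox21 (log2 1.48 ± 0.25, adjusted p = 0.00012), Pax6 (1.13 ± 0.10, adjusted p = 1.1e-07) and Sox1 (0.76 ± 0.08, adjusted p = 6.1e-07) were higher from 2iL. Pax3 (-1.10 ± 0.38, adjusted p = 0.025), Fabp7 (-0.98 ± 0.34, adjusted p = 0.023), Zfp521 (-0.95 ± 0.25, adjusted p = 0.0039) and Sox11 (-0.27 ± 0.08, adjusted p = 0.012) were lower. The medians over the 15 libraries were 14.04 CPM from 2iL and 5.06 from SL for Pax6, 23.0 and 16.6 for Sox1 and 0.479 and 1.70 for Zfp521. They were 4.71 and 1.60 CPM for Sox21 and 22.1 and 24.6 for Sox11. For Pax3 they were 0.102 and 0.248 CPM and for Fabp7 0.216 and 0.189 CPM, all near the counting limit. The medians of Fabp7 thus went the other way from its fitted difference. The calls of Pax3 and Fabp7 were lost without the Neural pair of day 2.5 or of day 3 (adjusted p 0.055 to 0.11). Nes did not pass (0.19 ± 0.15, adjusted p = 0.3), nor did Msi1 (0.25 ± 0.15, adjusted p = 0.16).

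At days 5 and 7, over 5 matched pairs, no member passed between the media in edgeR, and 0.241% of the 15381 genes tested did. The sizes were -0.34 ± 0.47 (Sox1) to 0.31 ± 0.14 (Nes) on the log2 scale, and Fabp7 had the widest error, -0.10 ± 0.97. In this comparison 2201 genes had an unadjusted p under 0.05 and DESeq2 called 401 genes. The medium by course term for Neural against EB at these days called no gene at all in edgeR (0% of 16028), with 917 genes at an unadjusted p under 0.05 and 18 genes called by DESeq2. The largest member terms were 2.81 ± 1.59 for Sox21 and 2.56 ± 1.35 for Pax6, and the lowest adjusted p among members was 0.84.

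**Figure D5:**
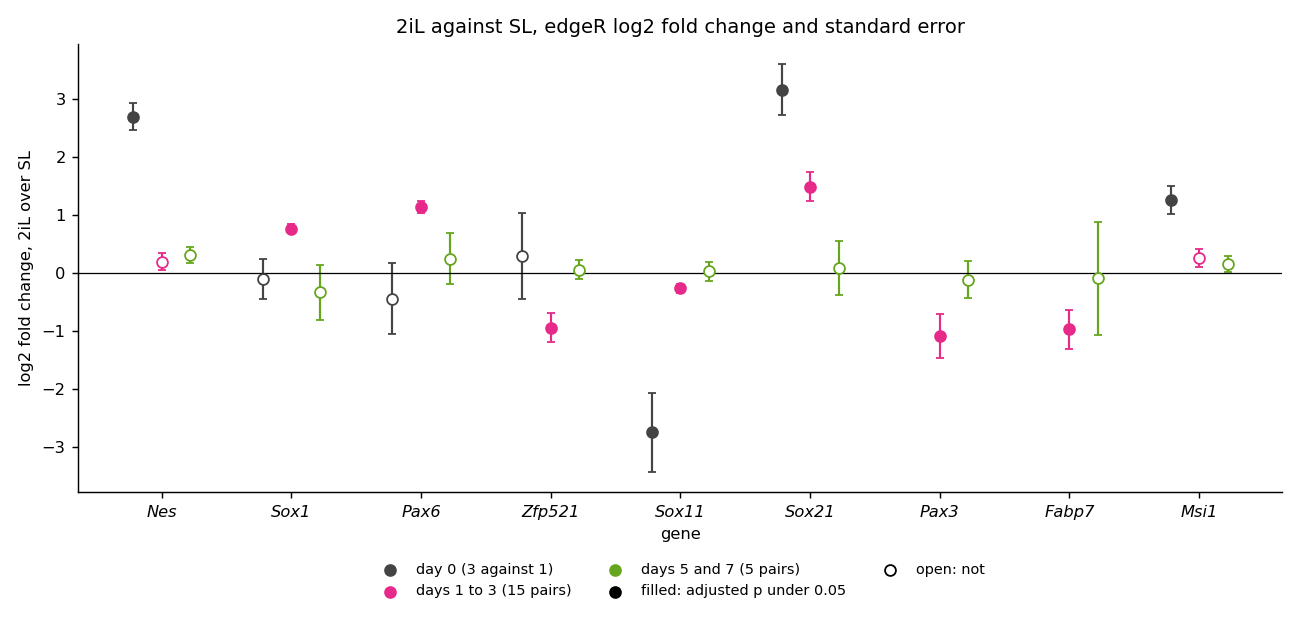
Log2 fold change of 2iL over SL origin from edgeR with standard errors, at day 0 (3 libraries against 1), days 1 to 3 (15 pairs) and days 5 and 7 (5 pairs). Filled points had an adjusted p under 0.05, and Pax3 and Fabp7 were not tested at day 0. Nes differed by 2.69 at day 0 and by 0.19 on days 1 to 3, and no gene was past the threshold at days 5 and 7.

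Across all 45 libraries, per kilobase of exon, the mean level was 11.7 CPM for Nes, 6.97 for Sox1, 5.67 for Msi1, 3.47 for Sox11, 2.64 for Fabp7, 2.48 for Sox21, 1.86 for Zfp521, 1.32 for Pax6 and 0.244 for Pax3. The SD over libraries was close to or above the mean for most of them (12.6 for Nes and 9.02 for Sox1), so neighbours in this order did not differ beyond their spread. The mean of Fabp7 rested on the 2iL EpiSC library of day 7 and was 1.54 without it, below Sox21 and Zfp521. On log2(CPM + 0.5), members that varied most alike were Zfp521 and Msi1 (Pearson's r 0.88 over 45 libraries), Nes and Zfp521 (0.86), Nes and Msi1 (0.86), Pax3 and Fabp7 (0.85) and Sox1 and Pax6 (0.80). Sox11 and Sox21 had an r of -0.15 and Nes and Sox21 of 0.11. These values describe libraries that share time courses and depth.

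The other genes whose pattern was most like each member were found among 15091 genes with at least 1 CPM in at least 4 libraries, by the same r. For Nes these were Ptpn9 (0.921), Ncs1 (0.920) and Nck2 (0.917), and for Sox1 Hoxb2 (0.916), Gnb4 (0.884) and Rfx4 (0.873). Pax6 had Fhod3 (0.910), Meis1 (0.861) and Stra6 (0.851), Zfp521 had Wls (0.976), Shd (0.975) and Zfp358 (0.972), and Sox11 had Pxdn (0.967), Sox4 (0.966), another SoxC factor, and Plxnb1 (0.933). Sox21 was nearest to Cdkn2c (0.863), Meis2 (0.838) and 2700081O15Rik (0.831), and Pax3 to Irx1 (0.938), Daam2 (0.934) and Zfp503 (0.929). Fabp7 was nearest to Tspan11 (0.937), Nr4a3 (0.919) and Neurod4 (0.915), and Msi1 to Zfp362 (0.942), Chd3 (0.941) and Arid1b (0.936). With a pseudocount of 0.1, 22 of these 27 genes were named again, and by Spearman's rank 10 of 27.

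Other genes of the neural lineage were read from lists beside the 9 members. At Neural day 7 against day 0, 16 of the 27 tested of 28 other neural progenitor genes were higher and 2 lower, with a median log2 change of 2.04 against -0.0270 over all genes, of which 27.7% were higher and 28.4% lower. Of 12 neuronal genes 10 were higher and 1 lower (median 4.34), of 5 glial genes 2 and 1, and of 9 neural crest and dorsal border genes 4 and 1. All 8 endoderm genes were higher (median 5.78) and all 8 pluripotency genes lower (median -4.07). Among the other lists 1 of 8 mesoderm genes was higher, 1 of 4 paraxial mesoderm genes and 1 of 5 endothelial genes were higher and 1 lower in each, and of 7 primed epiblast genes 4 were higher and 1 lower.

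Between Neural and EB libraries at days 5 and 7, 10 of 28 other neural progenitor genes were higher in Neural and 5 lower (median 0.58 against -0.0041 over all genes, of which 17.9% were higher and 15.6% lower). The largest differences were those of the POU factors Pou3f3 (log2 5.41 ± 1.07, adjusted p = 0.0063) and Pou3f2 (5.00 ± 1.21, adjusted p = 0.014) and of the Notch target Hes5 (4.65 ± 0.89, adjusted p = 0.0057). Of 12 neuronal genes 6 were higher and none lower (median 2.42), led by the proneural factors Neurog2 (5.61 ± 0.99, adjusted p = 0.0041) and Neurog1 (5.04 ± 1.29, adjusted p = 0.017) and by Dcx (4.92 ± 0.98, adjusted p = 0.0065). Olig2, a factor of motor neuron and oligodendrocyte progenitors, was the only one of 4 glial genes called (5.59 ± 0.74, adjusted p = 0.0028). Neural crest and dorsal border genes had 2 of 10 lower, Msx1 (-3.96 ± 1.04) and Sox10 (-3.62 ± 0.92), and none higher. Of 9 mesoderm genes 5 were lower, led by Mesp1 (-9.75 ± 1.08), T (-7.63 ± 0.84) and Mixl1 (-7.48 ± 0.96), and 1 was higher. Mesp1 had no count in the 4 Neural libraries, so its fitted value is no bound.

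All 7 primed epiblast genes were lower in Neural (median -2.80), led by Fgf8 (-5.12 ± 0.57), Fgf5 (-3.86 ± 0.75) and Otx2 (-3.64 ± 0.50). Otx2 is also a forebrain factor, and both Otx2 and Pou3f1 stand in the progenitor list too. Their lower calls therefore count in both lists. Of 8 endoderm genes 4 were higher and 1 lower, with Cubn at 3.06 ± 0.65, Afp at -2.29 ± 0.72 and Sox7 at 2.26 ± 0.73. Among 6 paraxial mesoderm genes Msgn1 (-6.85 ± 1.08) and Tbx6 (-2.65 ± 0.41) were lower and Uncx (3.51 ± 0.92) higher. Of 5 endothelial genes Cdh5 (2.46 ± 0.54) and Tek (1.40 ± 0.38) were higher and Etv2 (-2.92 ± 0.51) lower, and of 8 pluripotency genes 2 were higher and 3 lower, led by Nanog (-2.90 ± 0.70), Klf4 (2.43 ± 0.37) and Pou5f1 (-2.17 ± 0.71). Against EpiSC, where 11% of all genes were higher in Neural and 10.2% lower, 6 of 28 other progenitor genes were higher and 4 lower (median 0.45). In the same comparison 4 of 12 neuronal genes (median 2.10) and 7 of 8 endoderm genes (median 3.72) were higher and 6 of 7 primed epiblast genes lower (median -3.29). For the remaining lists against EpiSC, 2 of 4 glial and 2 of 5 endothelial genes were higher and 2 of 10 crest genes and 1 of 6 paraxial mesoderm genes lower, while mesoderm had 1 higher and 3 lower of 9 and pluripotency 2 higher and 1 lower of 8.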

How the data were processed

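Strand-specific RNA-seq of 45 libraries of E14tg2a ESCs was used. The authors trimmed reads with TrimGalore, aligned them to GRCm38 (mm10) with TopHat2, used featureCounts to assign reads to genes by strand, and deposited the raw counts without normalisation. Tool versions are not given in the sources used here. Groups came from the titles in the labels. The 9 genes and all gene lists were chosen with earlier results of these data known.

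CPM and fits were computed from the counts with R 4.3.3, edgeR 4.0.16 (TMM, filterByExpr, quasi-likelihood test) and Python 3.11.15 with matplotlib 3.10.9. Adjusted p is that of Benjamini and Hochberg over all genes tested. The edgeR test gives no standard error, so each was derived as the size of the log2 change over the square root of the F statistic. Comparisons of day 7 with day 3 or 5 and the medium by day and course by day terms were added after the values were seen, as were means without a gene's highest library and the Fabp7 ratio in SL alone. Days were compared within a course with medium as a covariate, courses with medium and day, and media over libraries matched for course and day. Library pairs differed by at least 8.52 times the counting variance, so none was taken as a copy. The 435 rows with no symbol held 0.000879% of counts and were kept. DESeq2 1.42.0, no filter, no covariate, a fit of all 45 libraries and leaving out each library were alternatives. Where this left a day with 1 library, that library was assumed to vary like the others. TMM-scaled CPM was 0.919 to 1.17 times the CPM printed.

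On simulated counts the Neural day 7 fit recovered 39% of log2 changes of 1 and 70.4% of changes of 2 among 15359 genes, with 8.47% of its calls false. For Neural against EB at days 5 and 7 (15170 genes) these shares were 50.5%, 83% and 3.62%, at days 2.5 and 3 (14660 genes) 73.2%, 94.9% and 5.17%, and for 2iL against SL at days 1 to 3 (15310 genes) 90.5%, 100% and 4.21%. In each simulation 200 genes were changed in the tested group. Apart from depth, libraries had the same mean for every gene otherwise, with no further effect of medium, day or course. The data differ in this, so the shares do not give the part of the reported calls that is false.

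Named genes were the 9 members, for each the 3 other genes with the highest Pearson r of log2(CPM + 0.5), and per list up to 3 called genes with the largest log2 difference between Neural and EB at days 5 and 7. The lists are other neural progenitor, neuronal, glial, neural crest and dorsal border, paraxial mesoderm, mesoderm, endothelial, endoderm, pluripotency and primed epiblast genes.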

Additional observations from a re-analysis of the deposited data

Results flagged for a closer look

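The change of Nes from day 0 to day 1 differed between the media by a test of the interaction, at -1.49 ± 0.25 on the log2 scale (2iL minus SL, edgeR adjusted p = 0.0066). Leaving out single day 0 libraries in 2iL or day 1 libraries from SL gave -1.54 to -1.42 (adjusted p 0.011 to 0.019). The SL day 0 level rests on 1 library with 81 counts of Nes.

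The difference of Pax3 between Neural and EB changed from day 5 to day 7 by the same kind of test, at -6.65 ± 0.80 (edgeR adjusted p = 0.016). Over the fits that left out 1 EB or Neural library the value was -7.32 to -6.01, with adjusted p values of 0.01 to 0.11.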

How the results depend on the processing

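In the 24 comparisons 103 member effects were called, and none reversed under any alternative. DESeq2 kept all 103. Without the filter 2 of 103 were lost (Sox11 in Neural against EB at days 5 and 7, adjusted p = 0.057, and Msi1 against EpiSC, 0.054), and in a fit of all 45 libraries 2 of 75. Without the covariate for medium, or for the matched pair, 12 of 95 were lost, among them the 5 members still tested between the media at days 1 to 3 (adjusted p 0.14 to 0.84). Leaving out single libraries lost 77 of 1468 calls, from 22 effects.

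The number of members called moved by over 1.5 times in the following cases. At Neural day 1 it was 4 and 2 without the covariate. For EB day 7 against day 5 it was 1, and 4 in DESeq2 and in the fit of all 45 libraries. At EpiSC day 3 it was 5, and 8 in the fit of all 45 libraries. For Neural against EpiSC at days 5 and 7 it was 2, with 1 without the filter and 4 in DESeq2 and in the fit of all 45 libraries. Between EB and EpiSC it was 0, and 2 in the latter fit, and between the media at days 1 to 3 it was 7, and 0 without pairing. For the course by day term it was 1, with 3 without the filter and 7 in DESeq2, and for the medium by day term 1, and 2 in DESeq2. With single libraries left out it was 2 to 4 at Neural day 1, 3 to 5 at day 2, 4 to 8 at day 2.5 and 2 to 4 for day 7 against day 3. It was 2 to 4 at EB day 3, 0 to 4 for EB day 7 against day 5, 1 to 4 for Neural against EB and 0 to 3 against EpiSC at days 5 and 7, 0 to 6 for the course by day term and 1 to 2 for the medium by day term. The cause was not tested.

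Counts over all genes moved by over 1.5 times in 17 cases. At Neural day 1, 2469 genes became 1431 without the covariate and 4019 in the fit of all 45 libraries, and for Neural day 7 against day 3, 4406 became 2859 without the covariate. In EBs, 4719 at day 3 became 7951 in the fit of all 45 libraries, and 328 for day 7 against day 5 became 1043 in DESeq2, 56 without the covariate and 1123 in the fit of all 45. At EpiSC day 3, 5186 became 2913 without the covariate and 7827 in the fit of all 45. EB against EpiSC went from 921 to 2086 in DESeq2 and 2577 in the fit of all 45, and Neural against EpiSC at days 2.5 and 3 from 2536 to 1204 without the covariate. Between the media 7954 at days 1 to 3 became 2931 without pairing, and 37 at days 5 and 7 became 401 in DESeq2 and 0 without pairing. The interactions went from 0 to 18 and from 358 to 973 in DESeq2.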
